A study of Homo sapiens with 6 samples.

Results

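The transcripts of 10 regulators of mitotic entry were examined in MDA-MB-231 cells, an established human breast cancer cell line of mesenchymal character. The genes were taken by symbol from the table of read counts: the transcription factor genes FOXM1 and MYBL2, the kinase gene CDK1 with the cyclin genes CCNB1 and CCNB2, the phosphatase genes CDC25B and CDC25C, and the kinase genes PLK1, AURKA and AURKB. All 10 were found among 54259 gene symbols, and all 10 were among the 15277 genes with enough counts to be tested. The RNA came from cells with a short hairpin RNA against brachyury (shBry, 3 libraries) and from cells with a control hairpin (shNC, 3 libraries), both in the same line. No further treatment, time point or clone is named in the labels, the hairpin sequence used in this line is not given in the sources used here, and the labels do not say whether the 3 libraries of a group came from separate cultures (the study's methods mention independent repeats in general, without naming the sequencing), so p-values measure the spread between these libraries only.

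A cell enters mitosis when CDK1, bound to a B-type cyclin, is switched on. WEE1 and PKMYT1 hold the kinase off by phosphorylating it, CDC25 phosphatases remove those phosphates, and PLK1 and the aurora kinases push the switch and then build the spindle. Most of these genes are transcribed late in the cell cycle, when MYBL2 and then FOXM1 join the MuvB complex on a promoter element called the cell cycle genes homology region (CHR), often beside CCAAT boxes bound by NF-Y.

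The promoter windows of these genes are shown so that the elements named above can be read beside the expression values. Whether these elements bear on the changes was not tested. RefSeq promoter windows (GRCh38.p14, 250 bases before to 50 after an annotated start) were matched by symbol for 8 of the 10 genes, with 16 starts in all. FOXM1 and AURKA were not matched. The stretch from 130 bases before to 50 bases after the start is printed 5′ to 3′ for 7 genes, and capitals mark the CHR letters TTTGAA, the variants TTTAAA and TTCGAA, and CCAAT, each on either strand (CCAAT on the other strand reads ATTGG, and TTTGAA reads TTCAAA). For CDC25C, CDK1 and CDC25B, which have several starts, the start with these elements closest before it is shown.
PLK1, chr16:23678759-23678938, plus strand: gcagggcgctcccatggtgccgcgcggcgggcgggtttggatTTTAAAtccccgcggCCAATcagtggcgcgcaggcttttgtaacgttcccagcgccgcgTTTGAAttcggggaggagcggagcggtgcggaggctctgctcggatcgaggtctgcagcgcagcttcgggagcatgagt
CCNB2, chr15:59105016-59105195, plus strand: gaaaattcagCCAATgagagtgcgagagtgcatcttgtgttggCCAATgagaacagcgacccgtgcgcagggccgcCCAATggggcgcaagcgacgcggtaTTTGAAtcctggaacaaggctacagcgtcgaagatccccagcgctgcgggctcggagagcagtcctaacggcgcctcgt
CDC25C, chr5:138331755-138331934, minus strand: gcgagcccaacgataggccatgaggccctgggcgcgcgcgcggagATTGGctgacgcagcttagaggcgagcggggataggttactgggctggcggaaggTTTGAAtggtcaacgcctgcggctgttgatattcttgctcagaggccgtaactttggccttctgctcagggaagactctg
CDK1, chr10:60778348-60778527, plus strand: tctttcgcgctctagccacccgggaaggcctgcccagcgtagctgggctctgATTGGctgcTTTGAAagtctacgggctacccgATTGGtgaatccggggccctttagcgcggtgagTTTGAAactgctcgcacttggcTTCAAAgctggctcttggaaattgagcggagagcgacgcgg
CCNB1, chr5:69167020-69167199, plus strand: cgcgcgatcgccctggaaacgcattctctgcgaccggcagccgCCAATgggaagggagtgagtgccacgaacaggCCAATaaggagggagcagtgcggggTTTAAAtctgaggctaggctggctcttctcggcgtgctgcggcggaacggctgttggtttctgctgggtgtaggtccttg
CDC25B, chr20:3796180-3796359, plus strand: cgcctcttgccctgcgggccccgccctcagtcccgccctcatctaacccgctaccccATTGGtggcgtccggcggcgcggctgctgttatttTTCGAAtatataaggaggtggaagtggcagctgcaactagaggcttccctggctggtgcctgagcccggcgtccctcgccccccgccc
MYBL2, chr20:43666984-43667163, plus strand: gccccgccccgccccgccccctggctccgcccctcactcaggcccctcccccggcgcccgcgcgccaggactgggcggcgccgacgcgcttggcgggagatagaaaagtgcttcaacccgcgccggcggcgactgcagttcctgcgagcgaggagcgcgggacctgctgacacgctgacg
In PLK1 and CCNB2 the TTTGAA began at position -29 from the start, in CDC25C at -30 and in CDK1 at -13. CCNB1 had TTTAAA at -30 and CDC25B had TTCGAA at -38. MYBL2 had none of the marked letters in the printed stretch, and of the other letters searched it held GGCGGGA, a core of E2F sites, at -39. TTTGAA occurred in 6 of the 16 windows, from 4 of the 8 genes, and in 15.2% of all 35116 windows. The variants occurred in 6 of the 16 windows, from 5 genes, and in 13.5% of all windows, and CCAAT in 11 of the 16, from 7 genes, and in 34.6% of all windows. Windows of 1 gene can overlap and share letters. A TTTGAA that began within 60 bases before the start, with a CCAAT 15 to 60 bases before it, was found in 4 of the 16 windows, each of another gene, and in 0.376% of all windows. With the variants admitted, it was found in 6 of the 16, each of another gene, and in 0.746% of all windows. These distance limits were chosen after the sequences were seen. The E2F letters TTTGGCGC or TTTCCCGC were in none of the 16 windows (2.27% of all windows), GGCGGGA was in 3 (15.4%), AACGG, a core of MYB sites, in 6 (19.7%), and TAAACA, a forkhead core, in 1 (12.3%). A match of letters is a description and shows no binding.

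**Figure D1:**
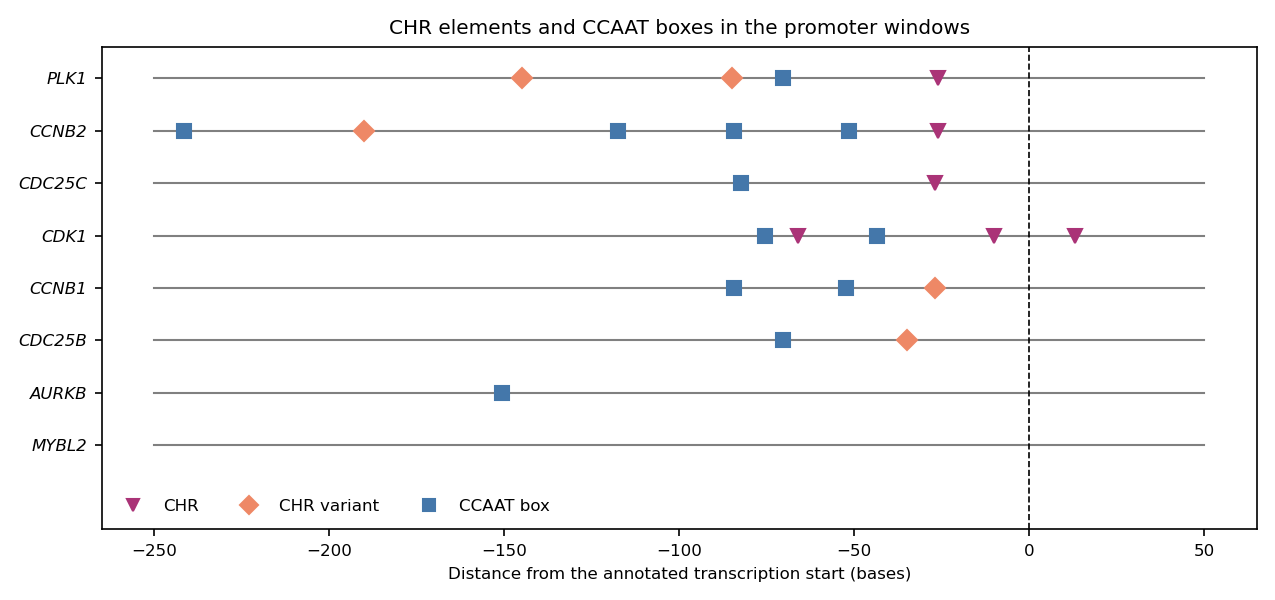
Centres of CHR letters (triangles), CHR variants (diamonds) and CCAAT boxes (squares) in 1 promoter window for each of 8 genes, in bases from the annotated transcription start (dashed line). The last CHR or variant before the start has its first base between -38 and -13 in the upper 6 genes, each with a CCAAT box upstream, while AURKB has a CCAAT box and no CHR, and MYBL2 has neither.

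The libraries held between 19319411 and 22985371 counts. Brachyury (listed as T) was at 0 counts in all 6 libraries, so the knockdown could not be checked on its target. The limit that a 0 allows, 3 counts, corresponds to 0.131 to 0.155 CPM (counts scaled to a common library size). The study describes brachyury as constitutively overexpressed in this line, which the 0 counts in the shNC libraries do not show. Marker genes were examined, because the deposited design text calls the RNA pericardial and the title names lung cancer. VIM, CD44, AXL and MSN, which mark mesenchymal breast cancer lines, had at least 503 CPM on average in both groups, and ZEB1 had 22.6 ± 4.12 CPM in shNC and 35.8 ± 6.18 in shBry. The luminal markers ESR1, PGR and CDH1 had at most 4 counts over all libraries, and GATA3 had 10.4 ± 1.19 CPM in shNC and 12.99 ± 0.935 in shBry. The 7 heart and pericardium markers summed to 35.3 to 39.5 CPM in shNC and 44.7 to 48.7 in shBry, with MYH6 and NPPA at 0, and most of the sum came from the mesothelial gene MSLN. CALB2, also in this list, stood out in 1 library. It had 11.1 CPM in shNC replicate 3, against 1.37 in shNC replicates 1 and 2 and 0.59 to 1.13 in shBry. The 4 lung markers summed to 36.5 to 42.9 CPM in shNC and 17.9 to 23.6 in shBry, most of it from NKX2-1 and the rest from NAPSA (3.91 ± 0.646 CPM in shNC and 3.72 ± 0.316 in shBry), with the surfactant genes SFTPC and SFTPB at 0. The 5 leukocyte markers together reached at most 0.23 CPM in shNC and 0.104 CPM in shBry, with PTPRC and TYROBP at 0. These markers describe the libraries and do not settle the identity of the cells. MSLN had 32.1 CPM on average in shNC and 45.9 in shBry, and NKX2-1 had 35.9 and 17.4. The part of these marker differences in the results was not tested.

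All 10 regulators were lower in shBry than in shNC, and for none of them did the 3 shBry values overlap the 3 shNC values. Among all tested genes, 28.9% were lower in shBry without overlap. Without overlap in the other direction were 30.6%, which makes 59.5% in all. Genes were called where the quasi-likelihood test of edgeR gave an adjusted p (Benjamini-Hochberg) under 0.05 and the groups differed by more than 1.5-fold. By this rule 9 of the 10 fell, against 15.2% of all tested genes called lower and 32.4% called in either direction, and CDC25B stayed under the fold change limit. On the adjusted p alone all 10 were lower, against 25.3% of all tested genes lower and 28% higher. The median log2 fold change of the 10 was -1.08, against 0.03 over all tested genes. With a fold change limit of 2 in place of 1.5, 6 fell: FOXM1, CCNB2, CDC25C, PLK1, AURKA and AURKB. In bulk RNA, fewer cells in late cell cycle phases and less of these transcripts per cell cannot be told apart.

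**Figure D2:**
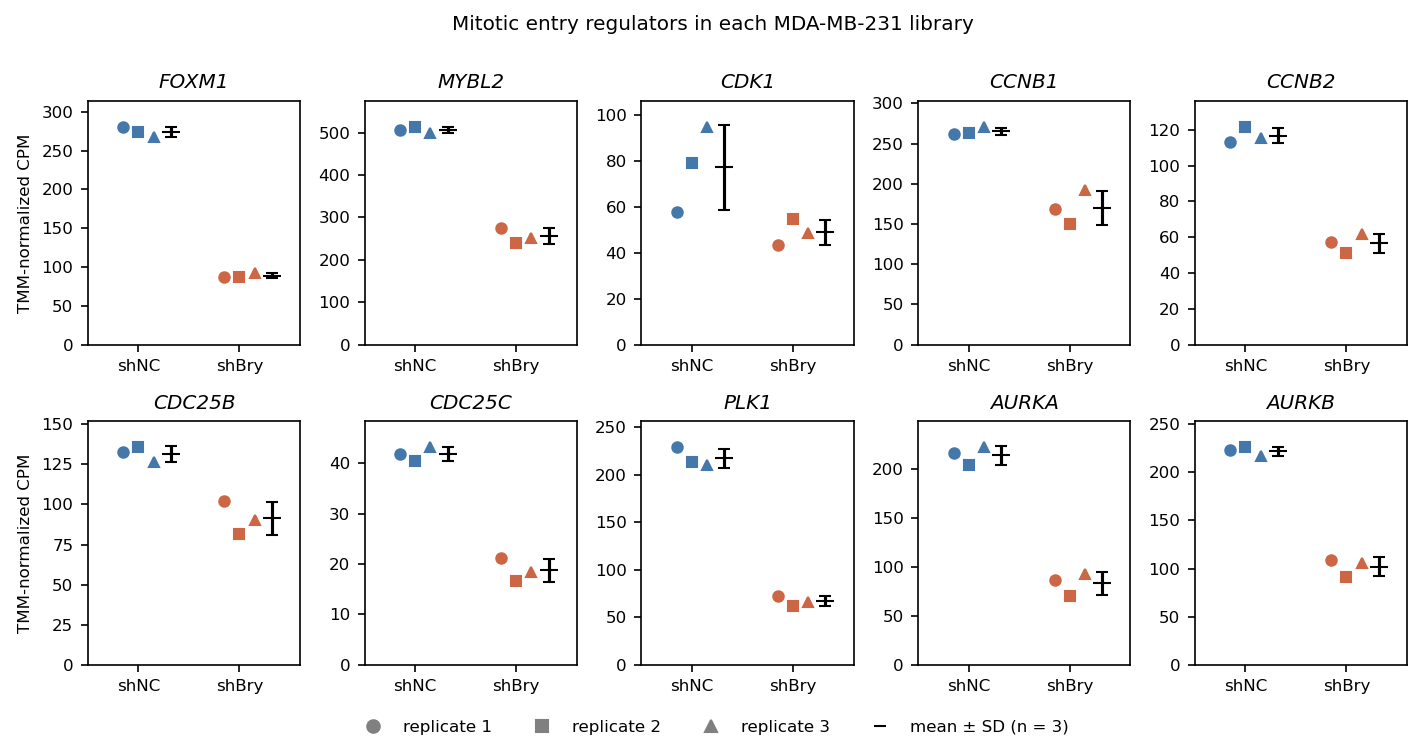
TMM-normalized CPM of the 10 regulators in each library (symbols by replicate, blue for shNC and orange for shBry), with the mean and SD of 3 libraries in black and each axis starting at 0. Every shBry value lies below every shNC value of the same gene, closest in CDK1, where shNC replicate 1 had 57.5 CPM and shBry replicate 2 had 54.7.

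FOXM1, the forkhead factor that drives late cell cycle transcription, had 280, 274 and 268 CPM in shNC replicates 1, 2 and 3 and 87.1, 87.2 and 92.5 CPM in shBry replicates 1, 2 and 3. The libraries of each group lay close together, and shBry held about 32.5% of the shNC level. The log2 fold change was -1.62 (standard error, SE, 0.08, adjusted p = 8.1e-10, edgeR), and 1.93% of all tested genes had a lower one. FOXM1 is on the minus strand of chromosome 12, from 2857681 to 2877155 (GRCh38, as all gene positions here). Exons of ITFG2, on the other strand, cover 15.9% of its exon bases, and ITFG2 had 9.39 ± 0.317 CPM in shNC and 12.97 ± 1.295 in shBry (SD, n = 3), far below FOXM1 and opposite in direction.

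MYBL2, the B-MYB factor that binds MuvB before FOXM1 does, was the most abundant of the 10. It had 507, 513 and 500.2 CPM in shNC and 276, 241 and 251 CPM in shBry, in the order of the replicates. Its level in shBry was 50.5% of that in shNC, a log2 fold change of -0.98 (SE 0.08, adjusted p = 1.5e-07). MYBL2 lies on chromosome 20 from 43667019 to 43716496 on the plus strand, and no exon of another gene overlaps it.
The relation of the 2 factor genes to each other was compared within libraries. The log2 ratio of FOXM1 to MYBL2 counts was -0.85, -0.91 and -0.90 in shNC and -1.66, -1.47 and -1.44 in shBry, and the groups did not overlap. The ratio was lower in shBry by 0.64 on the log2 scale (SE 0.07). The two-sided exact permutation test over 3 against 3 libraries gave p = 0.1, the smallest it can give, and 0.125 adjusted over the 5 pairs of genes compared, so this design cannot pass a threshold of 0.05.

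CDK1, the kinase whose activity starts mitosis, varied most between the shNC libraries. It had 57.5, 79.1 and 94.7 CPM in shNC and 43.4, 54.7 and 48.4 CPM in shBry. The coefficient of variation was 24.2% in shNC, against 1.27% to 4.57% for the other 9 genes in the same libraries. In shBry it was 11.5% for CDK1, within the range of 3.49% (FOXM1) to 13.9% (AURKA) of the others. The log2 fold change was -0.66 (SE 0.15, adjusted p = 0.0018). It was -0.58 without shBry replicate 1 (adjusted p = 0.0032) and -0.505 without shNC replicate 3 (adjusted p = 0.009), both under the fold change limit, so that the call of CDK1 rests on these libraries. CDK1 lies on chromosome 10 from 60778331 to 60794852 on the plus strand, with no overlapping exon.
CCNB1 encodes cyclin B1, the main mitotic partner of CDK1. It had 262, 263 and 270.4 CPM in shNC and 168, 149 and 192 CPM in shBry. The shNC libraries were nearly equal and the shBry libraries spread more. The log2 fold change was -0.64 (SE 0.09, adjusted p = 4.1e-05), and it was -0.57 without shBry replicate 2 (adjusted p = 1.4e-05), under the fold change limit.
CCNB2 encodes cyclin B2, which sits largely at the Golgi. It had 113, 121 and 115 CPM in shNC and 57.2, 51.0 and 61.5 CPM in shBry, so that shBry held 48.5% of the shNC level. The log2 fold change was -1.05 (SE 0.09, adjusted p = 3.4e-07). CCNB2 lies on chromosome 15 from 59105078 to 59125045, CCNB1 on chromosome 5 from 69167010 to 69178245, both on the plus strand.
The cyclin genes were compared in the same way. The log2 ratio of CCNB1 to CCNB2 counts was 1.21, 1.116 and 1.23 in shNC and 1.56, 1.55 and 1.64 in shBry, higher in shBry by 0.40 (SE 0.04, exact permutation p = 0.1, adjusted p = 0.125). Per length, CCNB1 made up 71.3% ± 0.859 of the summed cyclin B1 and B2 RPKM (CPM per kilobase of exon) in shNC and 76.6% ± 0.604 in shBry (SD, n = 3). The log2 ratio of CCNB1 to CDK1 overlapped between groups, with 2.19, 1.73 and 1.51 in shNC and 1.95, 1.45 and 1.98 in shBry. Its difference of -0.02 had an SE of 0.26 (exact permutation p = 1), and its sign turned without shBry replicate 2 (0.16) or without shNC replicate 1 (0.17).

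CDC25B and CDC25C encode phosphatases that activate CDK1. CDC25B had 132, 136 and 126 CPM in shNC and 102, 81.5 and 90.1 CPM in shBry. It showed the smallest difference of the 10, a log2 fold change of -0.53 (SE 0.09, adjusted p = 0.00026), which passes on p but not on the fold change limit. Without shBry replicate 1 the log2 fold change was -0.62 (adjusted p = 3.5e-05) and CDC25B was called lower. CDC25C was the least abundant of the 10, with 41.7, 40.4 and 43.1 CPM in shNC and 21.3, 16.6 and 18.4 CPM in shBry. It fell to 44.9% of the shNC level, a log2 fold change of -1.16 (SE 0.11, adjusted p = 1.3e-06). Exons of FAM53C on the other strand cover 8.78% of the exon bases of CDC25C, and FAM53C itself had a log2 fold change of -0.63 (SE 0.09, adjusted p = 3.4e-05). FAM53C was more abundant than CDC25C, at 94.5 ± 7.37 CPM in shNC and 61.2 ± 2.09 in shBry (SD, n = 3). Whether its reads entered the CDC25C counts was not tested.
The log2 ratio of CDC25B to CDC25C counts was 1.67, 1.75 and 1.55 in shNC and 2.27, 2.29 and 2.29 in shBry. It was higher in shBry by 0.63 (SE 0.06, exact permutation p = 0.1, adjusted p = 0.125). The family member outside the 10, CDC25A, which acts mainly at the start of S phase, had 36.8 ± 0.5 CPM in shNC and 45.2 ± 1.23 in shBry, with a log2 fold change of 0.30 (adjusted p = 0.013) that did not reach the limit. Of the summed RPKM of the 3 genes, CDC25C made up 24.1% ± 1.1 in shNC and 14.8% ± 0.622 in shBry, and CDC25A made up 17.2% ± 0.312 and 29.2% ± 2.53 (SD, n = 3).

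PLK1, the polo-like kinase that activates CDC25C and acts throughout mitosis, showed the largest fall of the 10. It had 229, 214 and 210.0 CPM in shNC and 72.8, 62.4 and 66.1 CPM in shBry, which left 30.9% of the shNC level. The log2 fold change was -1.70 (SE 0.09, adjusted p = 1.6e-09), and 1.58% of all tested genes had a lower one. PLK1 lies on chromosome 16 from 23677656 to 23690367 on the plus strand, and exons on the other strand, among them those of ERN2, cover 12.5% of its exon bases. ERN2 was at 0 counts in all 6 libraries, and the counts of AC008870.3, which also overlaps PLK1, were not examined.
AURKA encodes aurora A, the centrosome kinase that activates PLK1. It had 216, 203 and 222 CPM in shNC and 86.1, 70.5 and 93.0 CPM in shBry, with a log2 fold change of -1.36 (SE 0.10, adjusted p = 6.9e-08). Of the stretches of 50 bases in AURKA transcripts, 5.24% also occur in other annotated genes, namely AURKAP1, AURKAP2 and RAB3GAP2. The pseudogene row AURKAPS1 had 5 to 23 counts per library where AURKA had at least 1600, and the row AURKAPS2 was at 0.
AURKB encodes aurora B, the kinase of the chromosomal passenger complex. It had 223, 226 and 217 CPM in shNC and 109, 91.0 and 106 CPM in shBry, with a log2 fold change of -1.12 (SE 0.09, adjusted p = 1e-07). The log2 ratio of AURKA to AURKB was -0.05, -0.15 and 0.03 in shNC and -0.34, -0.37 and -0.18 in shBry. The groups were separate but close, with a difference of -0.24 (SE 0.08, exact permutation p = 0.1, adjusted p = 0.125).

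**Figure D3:**
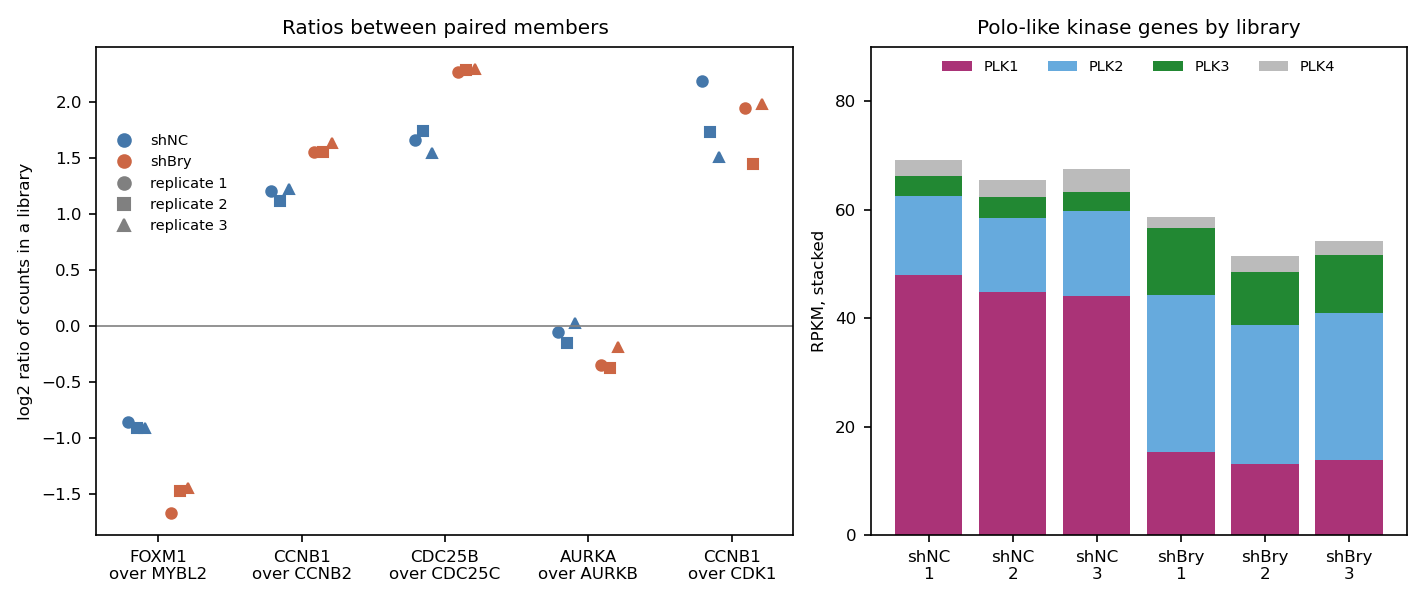
Left, the log2 ratio of counts of paired regulators in each library (blue for shNC, orange for shBry). The groups are separate in 4 of 5 pairs and overlap for CCNB1 over CDK1. Right, RPKM of 4 polo-like kinase genes stacked by library, where PLK1 makes up most of the sum in shNC and 25.5% to 26.1% in shBry.

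Levels between genes were compared per length, as RPKM over the union of annotated exons. In shNC the order was MYBL2 (182 ± 2.31, SD, n = 3), CCNB1 (104 ± 1.76), AURKB (99.0 ± 2.07), AURKA (72.9 ± 3.18), FOXM1 (55.9 ± 1.31), PLK1 (45.7 ± 2.09), CCNB2 (41.7 ± 1.53), CDC25B (30.5 ± 1.11), CDK1 (19.6 ± 4.75) and CDC25C (12.5 ± 0.412). No neighbours in this order overlapped in their library values, though CCNB1 and AURKB (102 against 101 RPKM at their closest) and PLK1 and CCNB2 (44.1 against 43.4) came near. In shBry the top 4 kept their order, with MYBL2 at 92.2 ± 6.48 and CCNB1 at 66.3 ± 8.26. FOXM1 moved from position 5 to 7 and PLK1 from 6 to 8, below CDC25B and CCNB2. CDC25B and CCNB2 (21.2 and 20.2 RPKM), CCNB2 and FOXM1 (20.2 and 18.1), and PLK1 and CDK1 (14.1 and 12.4) overlapped in shBry.

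**Figure D4:**
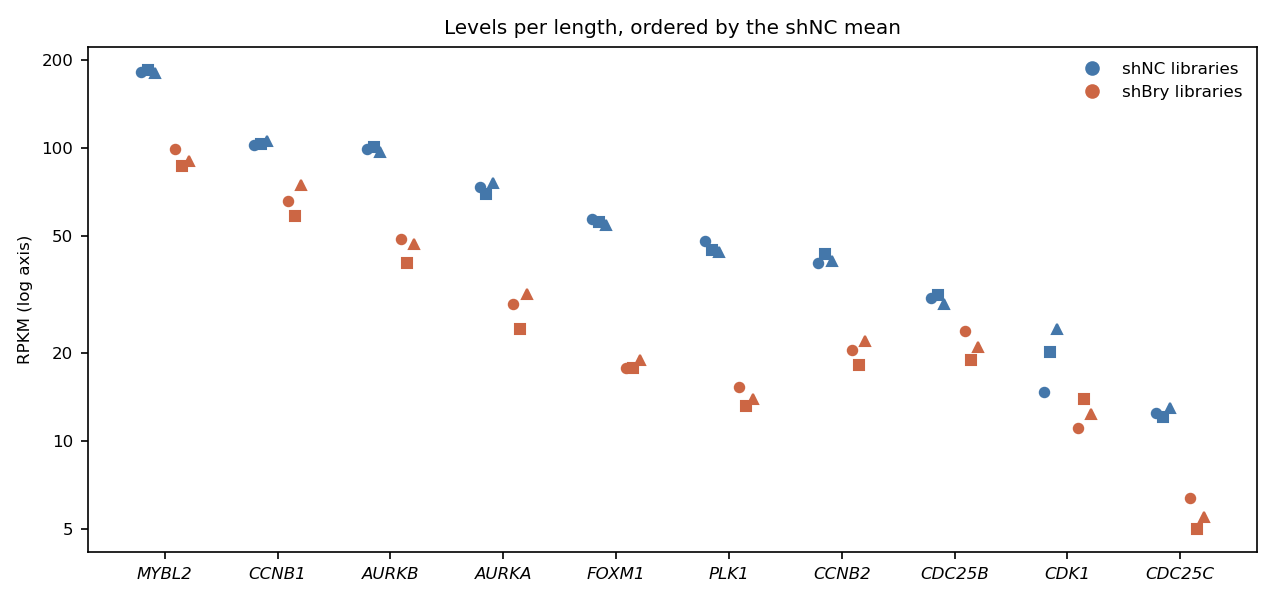
RPKM of the 10 regulators in each library on a log axis, ordered by the shNC mean (blue for shNC, orange for shBry). The order runs from 182 for MYBL2 to 12.5 for CDC25C in shNC, and FOXM1 and PLK1 drop below CCNB2 and CDC25B in shBry.

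Libraries of the same group were compared over the 10 regulators. Of these, 8 had their lowest shBry value in replicate 2, and the exceptions were FOXM1 and CDK1, which were lowest in replicate 1. The share of all tested genes lowest in shBry replicate 2 was not determined, so the count cannot be called particular to the regulators. In shNC the lowest values were spread, with 3 regulators lowest in replicate 1, 2 in replicate 2 and 5 in replicate 3. The summed CPM of the 10 was 905 in shBry replicate 2 and 1024 and 1019 in replicates 1 and 3, against 2061 to 2069 in shNC. CDK1 was alone among the 10 in being highest both in shNC replicate 3 and in shBry replicate 2, an order shown by 20% of all tested genes. Of 21 other late cell cycle genes described below, 14 showed it (66.7%), among them MKI67, TOP2A and CENPF. The source of these differences was not tested.

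The other genes of the pathway were followed with 7 lists of 86 genes in all, of which 84 were tested. Over these lists 33 genes were called lower, 12 were called higher and 39 were not called. Among all tested genes 15.2% were called lower and 17.1% higher.

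**Figure D5:**
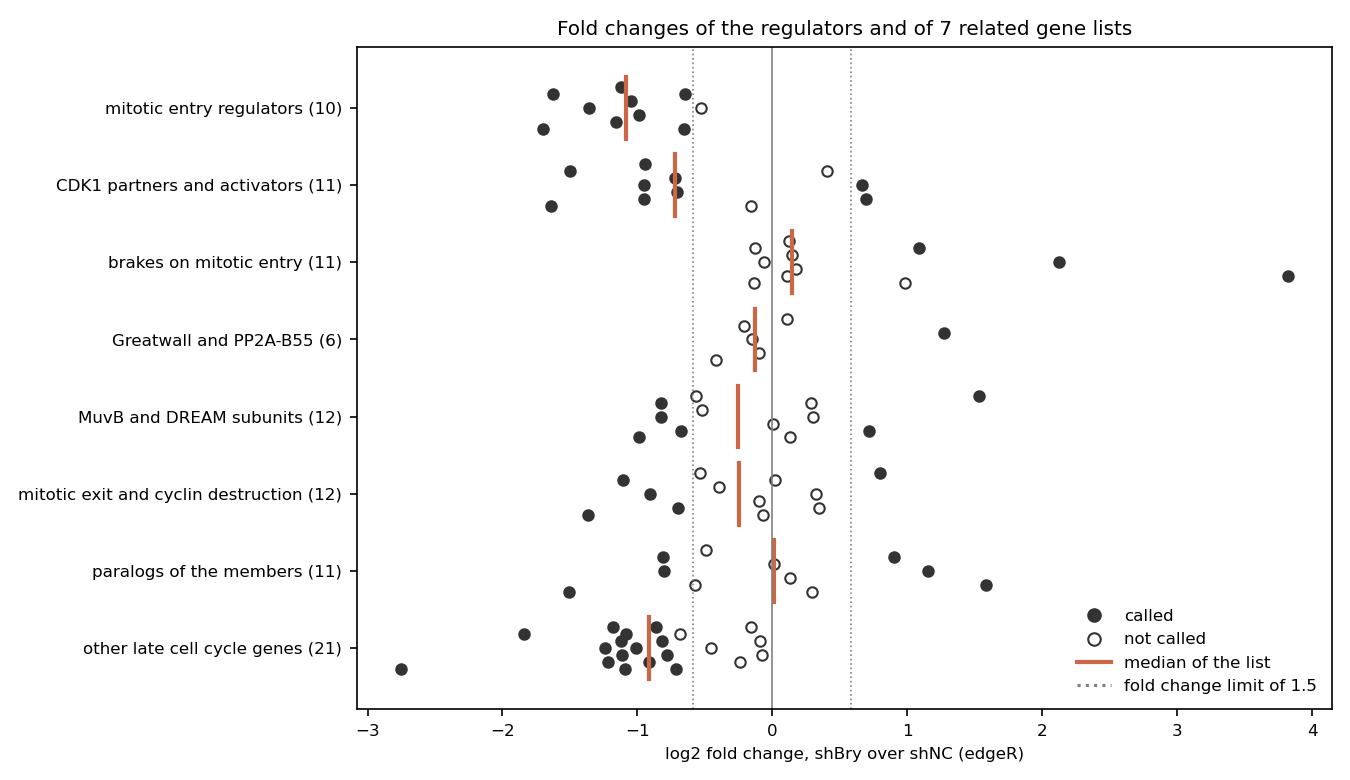
Log2 fold changes of shBry over shNC for the 10 regulators and the 84 tested genes of 7 lists, one point per gene (filled, called; open, not called), with list medians as vertical bars and the fold change limit as dotted lines. The regulators and the late cell cycle genes lie to the left, with medians of -1.08 and -0.91. Neither the brakes on mitotic entry nor the Greatwall and PP2A-B55 genes have a called gene on the left. The share called lower among all tested genes was 15.2%.

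Partners and activators of CDK1, PLK1 and the aurora kinases came first. Of 11 tested genes 7 were called lower and 2 higher, with a median log2 fold change of -0.72. The shares among all tested genes were 15.2% called lower and 17.1% called higher. BIRC5, which encodes survivin, and INCENP, both of which hold AURKB in the chromosomal passenger complex, had log2 fold changes of -1.64 (SE 0.09, adjusted p = 2.9e-09) and -1.497 (SE 0.09, adjusted p = 6.5e-09). CDCA8, which encodes borealin of the same complex, fell from 106 ± 4.65 to 55.02 ± 2.47 CPM. TPX2, the spindle factor that activates AURKA, fell from 438 ± 15.1 to 227 ± 9.74 CPM, with a log2 fold change of -0.95 (adjusted p = 1.6e-07). The cyclin A2 gene CCNA2 and the CDK subunit genes CKS1B and CKS2 were also called lower. BORA, which helps AURKA activate PLK1, was not called (log2 fold change -0.16, 95% confidence interval -0.53 to 0.22), and exons of DIS3 cover 37% of its exon bases.
The 3 genes of the CDK-activating kinase lay on the other side. CCNH had 29.3 ± 3.51 CPM in shNC and 47.5 ± 4.35 in shBry, with a log2 fold change of 0.69 (SE 0.11, adjusted p = 1.4e-04). Exons on the other strand, among them those of RASA1, cover 22.3% of the exon bases of CCNH. CDK7 was low, at 2.76 ± 0.988 and 4.37 ± 0.759 CPM, its groups overlapped, and its call (log2 fold change 0.66, adjusted p = 0.046) was lost in 6 of 12 alternative fits: without TMM, with DESeq2, and without shBry replicate 1, shBry replicate 3, shNC replicate 1 or shNC replicate 2 (adjusted p up to 0.22). MNAT1 had a log2 fold change of 0.41 (adjusted p = 0.0036), under the limit.

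None of the brakes on mitotic entry was called lower. Of 11 tested genes 3 were called higher and 8 were not called, beside 15.2% lower and 17.1% higher over all tested genes, and the median log2 fold change was 0.14. WEE1, which phosphorylates CDK1 in the nucleus, had 17.4, 20.9 and 21.8 CPM in shNC and 13.998, 20.1 and 20.8 CPM in shBry. The groups overlapped, and the log2 fold change was -0.13 with a 95% confidence interval of -0.46 to 0.20 (adjusted p = 0.51). PKMYT1, its membrane-bound relative, had a log2 fold change of -0.14 with an interval of -0.34 to 0.07 (adjusted p = 0.24), and exons of PAQR4 and KREMEN2 cover 31.6% of its exon bases. The checkpoint kinase genes CHEK1, CHEK2, ATR and ATM had log2 fold changes between -0.06 and 0.18, and their intervals all lay between -0.33 and 0.53.
The 3 called genes were GADD45A, GADD45B and CDKN1A. GADD45A, whose protein can bind CDK1, had a log2 fold change of 3.82 (SE 0.12, adjusted p = 1.3e-11), GADD45B had 1.09 (SE 0.11, adjusted p = 1.3e-06), and CDKN1A, which encodes the kinase inhibitor p21, had 2.13 (SE 0.09, adjusted p = 2.5e-10). SFN, the 14-3-3 gene that can hold CDK1 in the cytoplasm, had 231.5 ± 14.2 CPM in shNC and 256 ± 33.6 in shBry and was not called, nor was GADD45G (0.253 ± 0.232 and 0.504 ± 0.0728 CPM, adjusted p = 0.16). Set side by side per length, after these values were seen, the summed RPKM of CDC25A, CDC25B and CDC25C over that of WEE1 and PKMYT1 was 2.29, 2.30 and 2.58 in shNC and 1.97, 1.87 and 1.86 in shBry.

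Greatwall and PP2A-B55 form the second arm of mitotic entry, in which MASTL blocks the phosphatase that opposes CDK1 through ENSA and ARPP19. Of 6 tested genes only PPP2R2A was called, beside 15.2% called lower and 17.1% called higher over all tested genes. It encodes the B55 alpha subunit and rose from 29.6, 33.2 and 34.01 CPM in shNC to 72.1, 80.3 and 81.1 in shBry, with a log2 fold change of 1.27 (SE 0.10, adjusted p = 8.6e-08). PPP2R2D, for the B55 delta subunit, had a log2 fold change of -0.42 (adjusted p = 0.0037) and ENSA -0.21 (adjusted p = 0.037), both under the limit. MASTL had 52.1 ± 5.49 CPM in shNC and 48.5 ± 7.09 in shBry (log2 fold change -0.10, 95% confidence interval -0.35 to 0.15). PPP2R2B was at 0 counts.

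Of 12 tested genes of the MuvB and DREAM complexes, which MYBL2 and FOXM1 join or replace, 4 were called lower, 2 higher and 6 in neither direction (15.2% and 17.1% of all tested genes were called lower and higher), with a median log2 fold change of -0.26. The pocket protein gene RBL2 fell (-0.83, SE 0.10, adjusted p = 1.2e-05), as did TFDP1 (-0.83, SE 0.09, adjusted p = 2.7e-06), TFDP2 and RBBP4. E2F5, a repressor E2F, rose from 11.7 ± 1.98 to 33.8 ± 2.4 CPM (log2 fold change 1.53, SE 0.13, adjusted p = 4.2e-07), and DYRK1A, whose kinase assembles DREAM, had 0.72 (SE 0.13, adjusted p = 3e-04). Of the LIN subunits, LIN9, LIN37 and LIN54 had log2 fold changes of 0.00, 0.29 and 0.13 with adjusted p of 0.99, 0.072 and 0.52, and LIN52 had -0.52 (adjusted p = 0.0033), under the limit. Exons of other genes cover 54% of the exon bases of LIN37 and 18.6% of those of E2F5.

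Among 12 genes of mitotic exit and cyclin destruction, 4 were called lower and 1 higher, with a median log2 fold change of -0.25. The shares over all tested genes were 15.2% lower and 17.1% higher. CCNF, a cyclin F-box gene, fell from 64.0 ± 1.09 to 24.8 ± 2.88 CPM (log2 fold change -1.37, SE 0.10, adjusted p = 8.7e-08). ESPL1, which encodes separase, fell from 108 ± 5.34 to 50.2 ± 2.07 CPM (-1.11, SE 0.08, adjusted p = 9.6e-08). CDC20, the mitotic activator of the anaphase-promoting complex, had a log2 fold change of -0.91 (SE 0.09, adjusted p = 1e-06), while its interphase counterpart FZR1 had -0.07 (95% confidence interval -0.25 to 0.12). CDC14A, a phosphatase gene, was called higher (0.80, SE 0.18, adjusted p = 0.0016) at 4.69 ± 0.751 CPM in shNC and 8.15 ± 0.973 in shBry. The ubiquitin-conjugating enzyme genes UBE2C and UBE2S had 0.32 (adjusted p = 0.007) and 0.34 (adjusted p = 0.011), higher in every shBry library but under the limit.

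Of 11 tested paralogs of the 10 regulators 3 were called lower, 3 higher and 5 in neither direction, beside 15.2% lower and 17.1% higher over all tested genes, with a median log2 fold change of 0.01. The polo-like kinases PLK2 and PLK3, both stress-responsive genes, rose where PLK1 fell. PLK3 had 12.9, 13.7 and 11.7 CPM in shNC and 43.3, 34.4 and 37.2 in shBry, with a log2 fold change of 1.59 (SE 0.12, adjusted p = 1.3e-07). PLK2 had 69.0, 64.7 and 75.0 CPM in shNC and 138, 122 and 130 in shBry, with a log2 fold change of 0.90 (SE 0.09, adjusted p = 1.2e-06). As a share of the summed RPKM of PLK1, PLK2, PLK3 and PLK4, PLK1 made up 67.8% ± 2.11 in shNC and 25.7% ± 0.31 in shBry (SD, n = 3), PLK2 21.6% ± 1.44 and 49.7% ± 0.393, and PLK3 5.44% ± 0.522 and 20% ± 1.04. The sum itself was 65.4 to 69.3 RPKM in shNC and 51.5 to 58.7 in shBry. CDK2, the S-phase relative of CDK1, fell from 158 ± 4.86 to 90.3 ± 1.53 CPM (log2 fold change -0.81, SE 0.08, adjusted p = 8.9e-07). CDK5 was also called lower. MYB (1.58 CPM in shNC and 0.548 in shBry) was called lower and CCNB3 (0.983 and 2.21 CPM) higher, and MYBL2 held 94.0% to 98.0% of the summed RPKM of the 3 MYB genes in every library.

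Of 21 other late cell cycle genes, chosen from the usual targets of FOXM1 and MuvB, 15 were called lower and none higher. Beside this, 15.2% of all tested genes were called lower and 17.1% higher. The median log2 fold change of the 21 was -0.91. KIF20A, a kinesin of cytokinesis, fell from 137, 120 and 132 CPM in shNC to 19.7, 20.2 and 18.0 in shBry (log2 fold change -2.75, SE 0.095, adjusted p = 3.1e-11), a larger change than that of any of the 10 regulators. MKI67, the gene of the Ki-67 antigen, had a log2 fold change of -1.84 (SE 0.12, adjusted p = 2.1e-08), and KIF2C, a kinesin that takes microtubules apart, had -1.24 (SE 0.08, adjusted p = 3.2e-08). The 6 genes that were not called were CENPE, KIF23, TTK, HMMR, ECT2 and GAS2L3. The log2 fold change was -0.16 for TTK, -0.09 for HMMR and -0.08 for ECT2, with 95% confidence intervals of -0.67 to 0.36, -0.55 to 0.37 and -0.41 to 0.25. Exons of other genes cover 58.4% of the exon bases of PRC1, which is also in this list.

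The genes whose profiles over the 6 libraries lay nearest to those of the 2 transcription factor genes were looked for among 9403 other genes averaging 10 CPM or more, by Euclidean distance between log2 CPM centred on each gene's mean. VASH1 and MCM4 were among the nearest to FOXM1, at distances of 0.111 and 0.121, with log2 fold changes of -1.57 and -1.69. TUBB4B, LMNB2 and ITGB5 lay nearest to MYBL2, at 0.0788, 0.0801 and 0.0801, with log2 fold changes of -0.998, -0.97 and -0.997. With 6 libraries in 2 groups, the difference between the groups enters such a distance.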

How the data were processed

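RNA of MDA-MB-231 shBry and shNC cells was sequenced, and the authors deposited raw counts, whole numbers of reads per gene symbol in each library, with no normalization. The submitters' processing notes name HISAT2 2.0.4, HTSeq and GRCh38. The annotation and the strand setting of the counting are not given in the sources used here, so genes that overlap on opposite strands could lose or share reads. Intervals and limits of a 0 cover counting error or the spread of these libraries only.

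Low rows of the deposited table were removed with filterByExpr (minimum count 10), the libraries were scaled with TMM, and the groups were compared in R 4.3.3 with edgeR 4.0.16 (quasi-likelihood test), fitted to all tested genes with group as the only term. The p and fold change limits follow the study's methods, with Benjamini-Hochberg adjustment added. Standard errors are the log2 fold change over the square root of F, and 95% intervals use its degrees of freedom. RPKM divide TMM-normalized CPM by the union of exons in GENCODE 29, whose coordinates are given here. Ratios of paired genes used counts plus 0.5. The test was tried on simulated data first. Alternatives used DESeq2 1.42.0, limma 3.58.1 and the settings given at the end.

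The genes, the lists and the tests were chosen with earlier results of these data known. The genes named from each list were the 3 with the smallest adjusted p and those called against the list's majority. Others were named after their values were seen. A gene that the rule on similar profiles would name is not reported here.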

Additional observations from a re-analysis of the deposited data

How the results depend on the processing

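The log2 fold changes of the 10 regulators were recomputed in 12 alternative fits, and none of the 120 values changed sign. The call stayed on its side in 116 of them. Calls that moved all came from leaving out a library: with each left out in turn, values ranged from -0.83 to -0.505 in CDK1, from -0.74 to -0.57 in CCNB1 and from -0.62 to -0.47 in CDC25B, and 8 or 9 regulators were called. Without TMM, with DESeq2, with limma-voom and under both other filters 9 were called. The difference in the log2 ratio of CCNB1 to CDK1 lay between -0.16 and 0.17 with libraries left out and was reversed at 0.16 without shBry replicate 2 and 0.17 without shNC replicate 1. A fold change limit of 2 gave 1042 genes lower and 1255 higher over all tested genes, and no limit gave 3860 and 4279, against 2325 and 2620. In the lists, the limit of 2 left 2 CDK1 partners and activators lower and 0 higher, 0 MuvB and DREAM subunits lower and 1 higher, 2 genes of mitotic exit lower and 0 higher, and 1 paralog lower. No limit gave 2 Greatwall and PP2A-B55 genes lower and 3 genes of mitotic exit higher. Of the CDK1 partners and activators, 1 was called higher without TMM and with DESeq2, and 1 or 2 with libraries left out, since the call of CDK7 was lost.

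Libraries of the 2 groups share replicate numbers. Deviations from the group means correlated at 0.18, -0.08 and -0.03 for equal numbers, and at -0.22 to 0.23 for unequal numbers. This shows no pairing by number, but with 3 libraries per group it cannot exclude one. With the replicate number as a block, 9 regulators were called, and 2325 genes were lower and 2589 higher.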
